A study of Rattus norvegicus with 16 samples.

Results

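Motile cilia are beating projections built on an axoneme, a ring of doublet microtubules around a central pair. In the brain they stand on ependymal cells, the epithelium that lines the ventricles and moves cerebrospinal fluid. The genes described here were all rows of the deposited rat count table whose symbols began with Cfap, Dnah, Dnai, Rsph, Tekt, Drc or Spag followed by a letter or digit, together with Hydin and Spef2. They numbered 58 of 15580 genes, under 57 symbols, because Spag5 stood under 2 Ensembl identifiers. Cfap gave 22 rows, Dnah 10, Spag 8, Rsph 6, Tekt 5, Drc 3 and Dnai 2. Foxj1, the master transcription factor of motile ciliogenesis, was not analysed here. All 58 passed the filter on low counts, which kept 14208 genes.

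Dynein heavy chains such as Dnah5 and Dnah1 form the outer and inner arms that pull on neighbouring doublets. Radial spokes, the nexin-dynein regulatory complex and the central apparatus pass signals to the arms, and tektins and other inner proteins stiffen the doublet wall. The name prefixes do not mark the axoneme alone. Spag9 encodes a scaffold of JNK signalling and Spag5 a protein of the mitotic spindle. Ttr, which encodes the thyroid hormone carrier transthyretin, is the most familiar transcript of the choroid plexus, the secretory epithelium inside the ventricles. Choroid plexus cells carry cilia as well, so cilium transcripts of the ependyma and of the choroid plexus cannot be told apart in these samples.

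RNA was measured in 16 brain samples of male Wistar rats, in 4 groups of 4 libraries. The design text names the amygdala, while the sample labels give whole tissue lysate of brain. The control group was left with the dam and fed standard chow, and the HFD group was left with the dam and fed a high fat diet. The ELS group (early-life stress) lost contact with the dam for 3 h daily during 16 days, starting on postnatal day 1, and was fed chow, and the ELS-HFD group was separated in the same way and fed the high fat diet. All groups were tested in the elevated plus maze around postnatal day 57, and the diets began on postnatal day 60. The labels do not give the age at tissue collection, the litter or the dam. They number replicates but do not state that these are different animals, so the p-values reflect sample-to-sample spread that can be partly technical. In bulk tissue, fewer cells of a type and less RNA per cell cannot be told apart.

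Total counts ran from 11438086 to 23629824 per library, and levels are given as CPM, which are counts brought to the same library total. Slc17a7 and Camk2a, markers of excitatory neurons, had at least 15350 and 8063 counts in every library. Before the results, 3 libraries have to be set apart. Ttr had 5649 counts in ELS 1, only 83 in ELS 2 and 4 in ELS-HFD 1, against 26373 to 190218 in the other 13. Of the other defining choroid plexus markers, Kl had 75, 10 and 4 counts in these 3 libraries, Folr1 36, 9 and 8, and Kcnj13 37, 0 and 10. The summed level of the 16 choroid plexus genes in the table was 621, 86.4 and 53.1 CPM there, against 2126 to 15778 CPM in the other 13. It spanned 2423 to 13079 CPM over the control libraries and 2126 to 9176 CPM over the HFD libraries. Counts of calls below are therefore given with and without them, and slopes of single genes are from all 16 libraries unless stated.

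Many of the cilium genes were also lowest in those libraries. Cfap126, a protein of the doublet lumen needed to position basal bodies in mouse, was at 29.9, 11.9, 9.68 and 17.2 CPM in the control libraries and 28.5, 8.70, 14.7 and 13.5 CPM in the HFD libraries. It was at 2.82, 2.56, 31.1 and 31.4 CPM in ELS 1 to ELS 4, from 36, 31, 484 and 434 counts, and at 1.03, 16.2, 35 and 8.50 CPM in ELS-HFD 1 to ELS-HFD 4, from 15, 240, 465 and 131 counts. The ELS group thus held both very low and very high libraries, and all 4 groups overlapped. Cfap44, which tethers an inner dynein arm to the doublet, followed the same order of high and low libraries within ELS-HFD, with 9, 183, 242 and 76 counts. It had 19, 14, 283 and 244 counts in ELS, 248, 206, 81 and 168 in control and 170, 182, 150 and 130 in HFD. Hydin, a very large protein of the central apparatus whose loss causes hydrocephalus in mice, had 93 and 117 counts in ELS 1 and ELS 2 and 113 in ELS-HFD 1. In the other 13 libraries Hydin had 203 to 458 counts, so its drop was shallower than that of Cfap44.

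**Figure D1:**
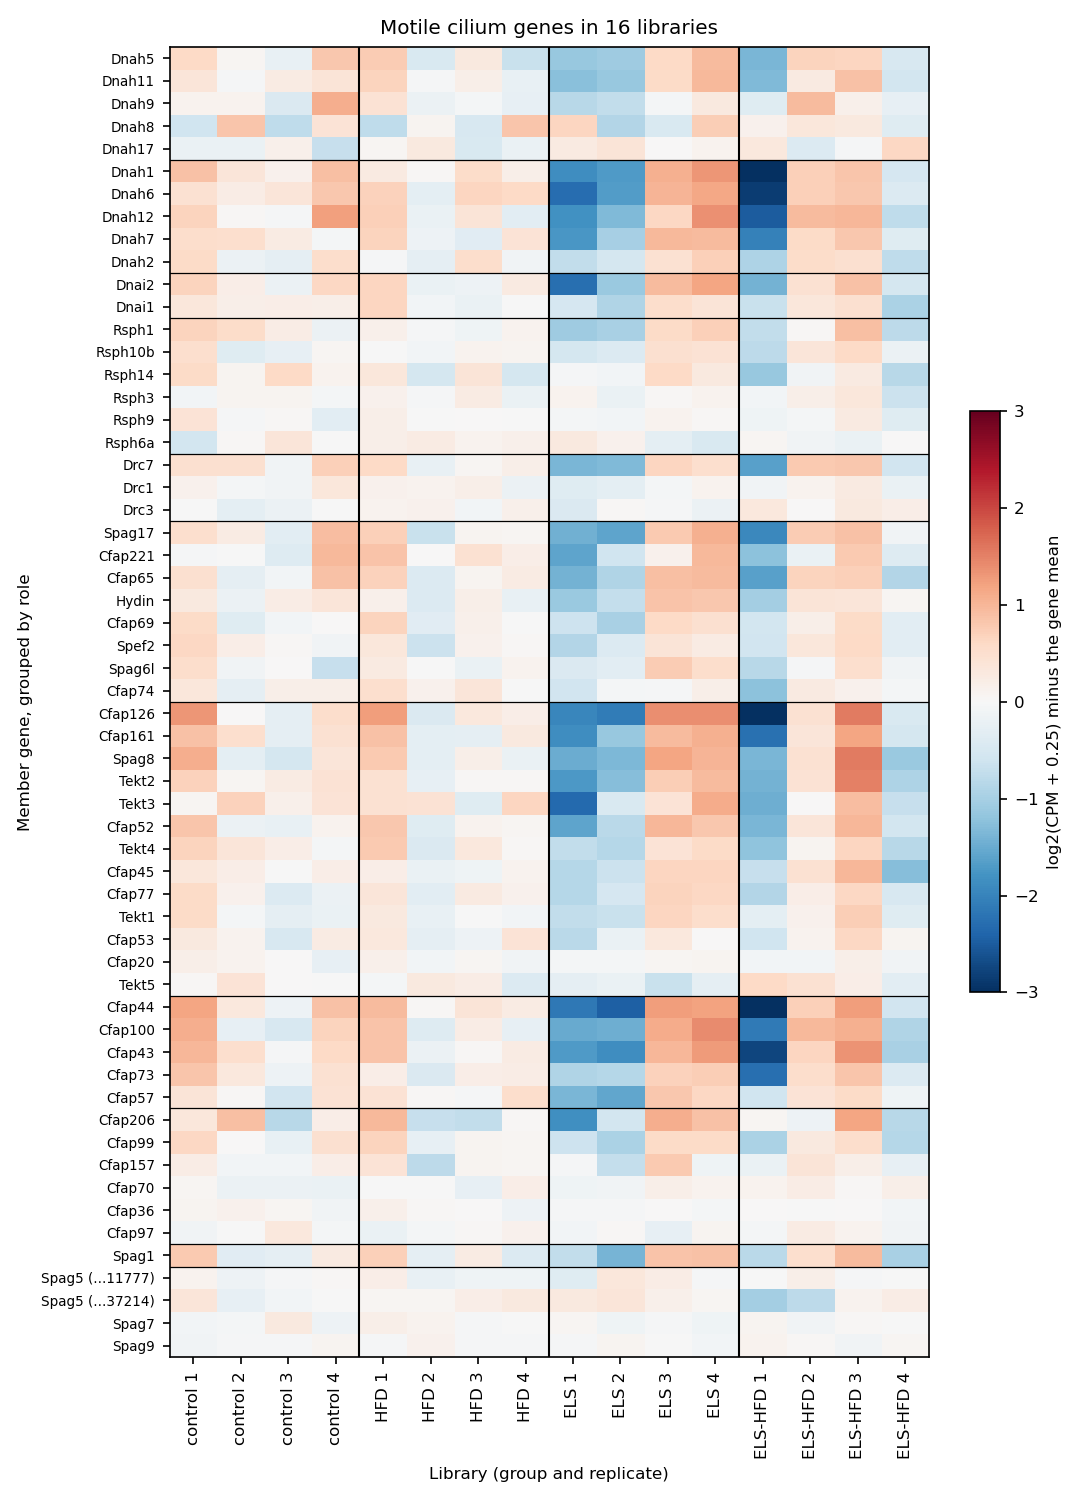
Each row is 1 of the 58 cilium-named genes, grouped by role, and each column is 1 library; colour gives log2(CPM + 0.25) after subtraction of the row mean. ELS 1, ELS 2 and ELS-HFD 1 are blue in most rows of the dynein, tether and doublet groups and pale in the Spag7 and Spag9 rows.

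ELS 1, ELS 2 and ELS-HFD 1 were below all other 13 libraries for 25 of the 58 genes, against 441 of all 14208 genes tested (background 3.10%). These 25 included the inner-arm dynein heavy chains Dnah1, Dnah6, Dnah7 and Dnah12, the tethers Cfap43, Cfap44, Cfap57, Cfap73 and Cfap100, and the central apparatus genes Hydin, Spag17, Cfap65, Cfap69 and Cfap221. The mean level of the 58 genes, as a log2 difference from each gene's mean over the libraries, was -0.95, -0.75 and -1.07 in the same 3 libraries. The other 13 libraries lay between -0.43 in ELS-HFD 4 and 0.63 in ELS-HFD 3. The choroid plexus genes on the same scale were at -2.33, -4.74 and -5.18 in the 3 libraries and between -0.46 and 2.19 elsewhere. The mean of the 58 genes therefore dropped less than that of the choroid plexus genes, but it includes genes that stayed flat. In ELS 1, ELS 2 and ELS-HFD 1 the 5 inner-arm dynein heavy chains averaged -1.78, -1.29 and -2.49. The 5 tethers averaged -1.61, -1.73 and -2.43, and the 4 Spag rows outside the axoneme -0.007, 0.17 and -0.25. ELS 2 was lower than ELS 1 for the choroid plexus genes but not for the mean of the 58, and roles differed in this order. Cfap221 and Tekt3 were at 0 counts in ELS 1, and Cfap73 was at 0 in ELS-HFD 1.

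Not every gene with a cilium prefix took part. Spag9 had 4633 and 4762 counts in ELS 1 and ELS 2 and 5791 in ELS-HFD 1, within the 4222 to 9676 counts of all libraries, and its highest CPM was 1.19-fold its lowest. Cfap36, a protein known to bind the small GTPase ARL3, spanned 1.23-fold from lowest to highest, 123 to 152 CPM. Cfap20, a doublet protein present in primary as well as motile cilia, spanned 1.36-fold. Cfap126 by comparison spanned 34.0-fold, Cfap44 by 29.5-fold, Cfap43 by 20.5-fold, Dnah1 by 48.1-fold and Hydin by 4.04-fold. Their lowest counts in any library were 15, 9, 19, 3 and 93 in the same order, against 1541 for Cfap36 and 595 for Cfap20. The span of Dnah1 thus rests on 3 counts at its low end. The flat Cfap36 and Cfap20 and the variable Cfap126, Cfap44 and Cfap43 share a name prefix but not their spread over libraries.

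Agreement among the genes was described by Pearson's r on log2 CPM. The 58 genes form 1653 pairs, which share the same libraries and the same scaling, so the values are a description. They are given without the r of pairs of other genes beside them. The median r was 0.61 over the 16 libraries, and 506 pairs (30.6%) exceeded 0.8. It was 0.64 on deviations from the group means and 0.50 in the 13 libraries left without ELS 1, ELS 2 and ELS-HFD 1. Restricting to the 39 genes with at least 50 counts on average gave 0.62. Tekt2, a tektin of the doublet wall, had the highest median r with the other genes, at 0.87, followed by Cfap52 at 0.86. Rsph6a, a radial spoke head protein known from mouse sperm, had the lowest at -0.51, with Spag9 also at -0.51 and Dnah17, an outer-arm heavy chain of sperm flagella, at -0.49. In the 13 libraries these were -0.53 for Rsph6a, -0.50 for Spag9 and -0.29 for Dnah17.

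**Figure D2:**
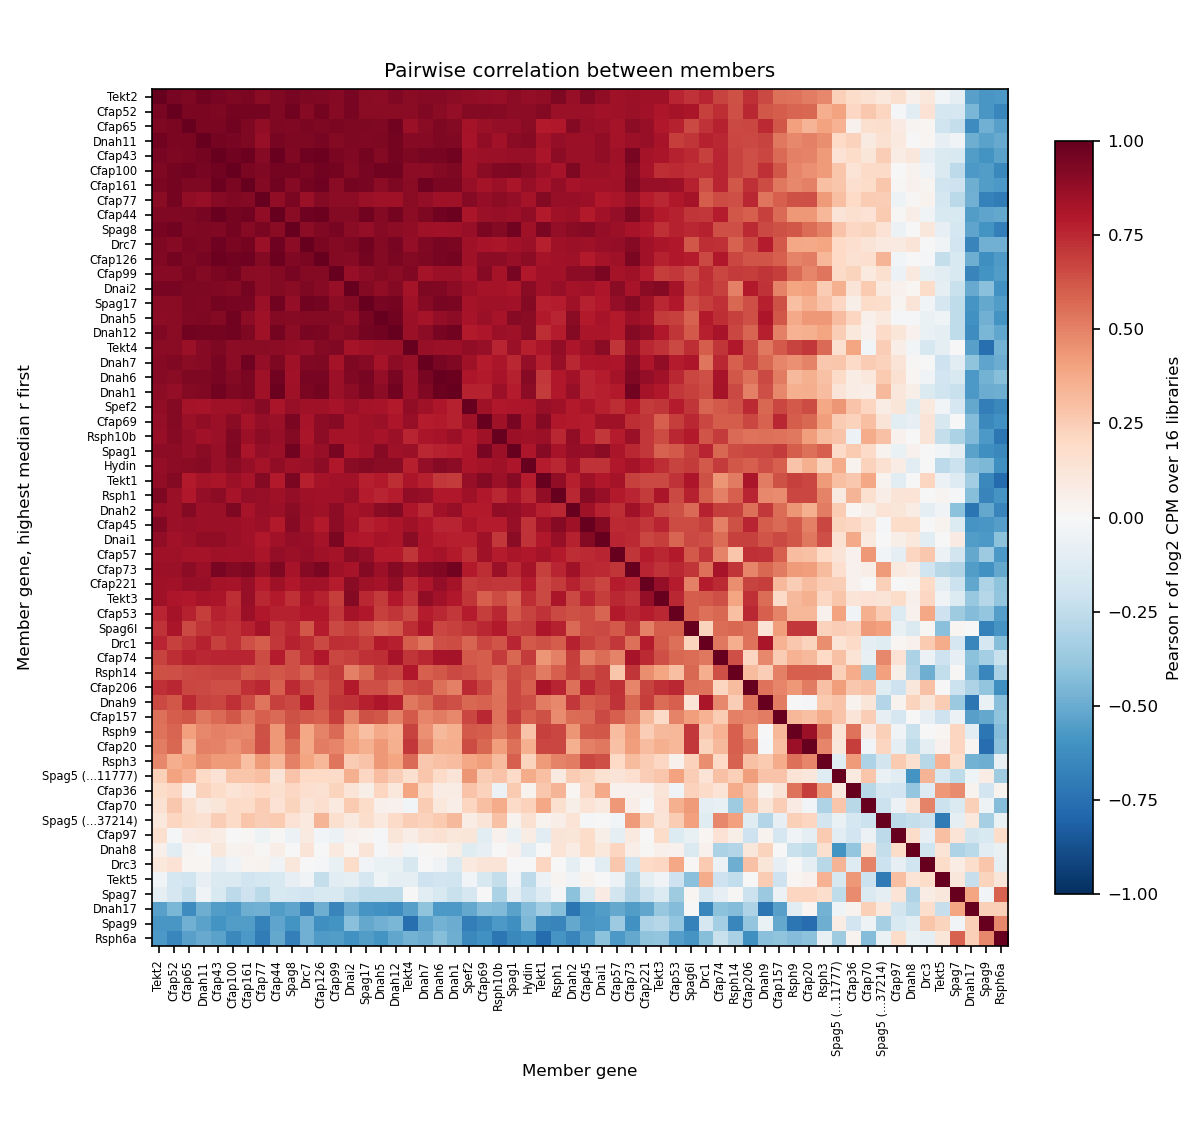
Each cell is Pearson's r of log2 CPM over 16 libraries between a pair of the 58 genes, ordered from the highest median r (Tekt2, 0.87) to the lowest (Rsph6a, -0.51). A large red block holds most dynein, tether, doublet and central apparatus genes, a pale band holds genes such as Cfap36, Cfap70 and Drc3, and Dnah17, Spag9 and Rsph6a are blue against the block.

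Agreement with the choroid plexus was tested as the slope of each gene on log2 CPM of Ttr within groups, in the edgeR fit across all genes. Of the 58 genes, 31 were called at an adjusted p under 0.05, all with a positive slope, against a background of 7.92% of all genes called in either direction with 5.99% called positive and 1.93% negative. The median slope was 0.11 log2 units per log2 unit of Ttr, against -0.001 for all genes. Cfap44 had a slope of 0.39 ± 0.044 (SE, 16 libraries, adjusted p = 7.21e-05), Cfap126 0.39 ± 0.047 (adjusted p = 0.00015) and Dnah1 0.35 ± 0.043 (adjusted p = 0.000185). Cfap43 and Dnah6 followed at 0.31 and 0.33. Cfap36, Cfap97 and Spag5 (ENSRNOG00000011777) had the largest p-values, with slopes that round to 0 at 2 decimals. Leaving out ELS 2 alone, the library with 83 Ttr counts, lowered the number of calls from 31 to 20, while the background fell from 7.92% to 2.85%.

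Without the 3 libraries poor in Ttr the range of Ttr was shorter, and 47 of the 58 slopes were higher than with all 16. In the remaining 13 libraries 12 of the 58 genes were called, all positive, against a background of 4.26%. The median slope was 0.30 and 51 slopes were positive. Cfap126 had a slope of 0.74 ± 0.087 (SE, 13 libraries, adjusted p = 0.000205), Cfap69, a central apparatus protein, 0.41 ± 0.048 (adjusted p = 0.000215), and Cfap52, a doublet inner protein, 0.54 ± 0.072 (adjusted p = 0.000621). Of the 12 calls 10 were among the 31 of all libraries, and Spef2 and Tekt1 were called only in the smaller set, a difference that was not tested. Cfap43, Dnah1 and Dnah6 were not called there, with slopes of 0.48, 0.30 and 0.31. Pearson's r with Ttr over the 13 libraries had a median of 0.66 over the 58 genes, and Spearman's rho a median of 0.68. It reached 0.95 for Cfap69, 0.94 for Cfap126, 0.93 for Cfap52 and 0.90 for Tekt1, and was -0.76 for Rsph6a. These values share 1 Ttr measurement per library and are a description, without the r of all genes with Ttr beside them.

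**Figure D3:**
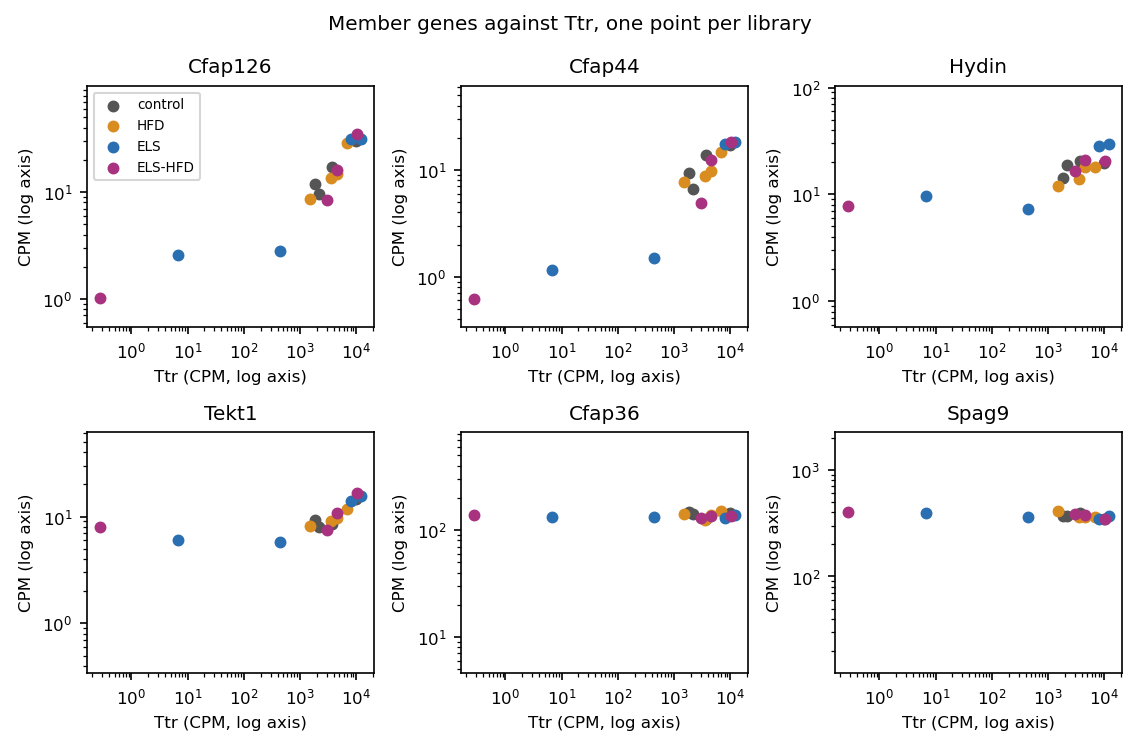
CPM of 6 genes against CPM of Ttr, both on log axes that span the same number of decades for each gene, with 1 point per library coloured by group. Cfap126 and Cfap44 rise steeply within the cloud of 13 libraries and fall in the 3 libraries to the left, Hydin and Tekt1 do so less, and Cfap36 (123 to 152 CPM) and Spag9 (342 to 407 CPM) form a flat line.

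A cilium gene from outside the list served as a second yardstick. Ccdc153, a marker of ependymal cells, took the place of Foxj1 and was at 15.0, 14.5, 7.88 and 12.5 CPM in control, 16.1, 8.40, 9.47 and 12.2 in HFD, 4.07, 3.63, 19.7 and 14.3 in ELS and 3.23, 14.2, 19.2 and 4.80 in ELS-HFD. Its lowest libraries were again ELS 1, ELS 2 and ELS-HFD 1, where it had 52, 44 and 47 counts. Over the other 13 libraries Ttr and Ccdc153 rose together, with Pearson's r of 0.67 (p = 0.0101, permutation test, two-sided) and Spearman's rho of 0.76 (p = 0.00372, permutation test, two-sided). This was the 1 relation tested by permutation, and r was 0.57 without HFD 2 and ELS 3, the libraries farthest from the median of Ttr. Values were permuted over all 13 libraries without regard to group. The slope of Ttr on Ccdc153 within groups, given below for the same 13 libraries, was not called.

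Ccdc153 was measured in the same libraries, so all slopes on it share its error. Its own r with the mean level of the 58 genes was 0.97 over 16 libraries and 0.92 over 13. Slopes on it are therefore not separate from the agreement among the genes described above. On Ccdc153, 41 of the 58 genes were called in edgeR, all positive, against a background of 19.8% in either direction, 11.8% positive and 8.03% negative. All 31 genes called on Ttr were among these 41. The median slope was 0.60 log2 units per log2 unit of Ccdc153, against -0.01 for all genes. Cfap43 had the smallest adjusted p, 3.77e-06, with a slope of 1.36 ± 0.10 (SE, 16 libraries). Drc7, of the nexin-dynein complex, had 0.98 ± 0.083 (adjusted p = 7.82e-06), Cfap161, a doublet inner protein, 1.22 ± 0.12 (adjusted p = 1.65e-05), Spag8 1.22 ± 0.12 (adjusted p = 2.29e-05) and Cfap52 0.92 ± 0.098 (adjusted p = 3.18e-05). Without ELS 1, ELS 2 and ELS-HFD 1 the calls fell to 10 of 58, against a background of 0.596%. All 10 were among the 41, and 52 slopes were positive with a median of 0.55. Cfap43 remained called at 1.06 ± 0.13 (SE, 13 libraries, adjusted p = 0.0162), as did Cfap126 at 1.07 ± 0.21 (adjusted p = 0.0498).

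By role, and with all 16 libraries, the calls fell as follows. All 5 inner-arm dynein heavy chains were called, with slopes on Ccdc153 from 0.58 for Dnah2 to 1.20 for Dnah1. Both outer-arm intermediate chains were called, at 1.14 for Dnai2 and 0.57 for Dnai1. Of the 5 outer-arm heavy chains 3 were called, Dnah5 at 0.89, Dnah11 at 0.80 and Dnah9 at 0.44. Dnah8 and Dnah17, the heavy chains best known from sperm flagella in mouse and human, were not called and stood at 0.15 ± 0.21 and -0.22 ± 0.092 (SE). Their counts were low, at least 16 for Dnah8 and 23 for Dnah17 in every library, but some called chains were as low. Over the 16 libraries Dnah8 and Dnah17 averaged 2.91 and 3.32 CPM. The called Dnah5, Dnah7 and Dnai2 averaged 2.89, 2.25 and 2.06 CPM, and the other called dynein chains from 3.96 to 14.4 CPM. The part of depth in the missing calls was not tested. Without ELS 1, ELS 2 and ELS-HFD 1 none of the 12 dynein chains was called. The slope of Dnah1 was then 0.55 (adjusted p = 0.122, edgeR), and the inner-arm heavy chains lay between 0.51 and 0.74.

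All 5 tether and inner-arm modifier genes were called, from 0.78 for Cfap57 to 1.44 for Cfap44, with Cfap100 at 1.39. In the central apparatus 7 of 8 genes were called, Spag17 at 1.16, Cfap221 at 1.02, Cfap65 at 0.96, Hydin at 0.57, Cfap69 at 0.54, Spef2 at 0.52 and Spag6l at 0.43, while Cfap74 stood at 0.29 ± 0.13 (SE, adjusted p = 0.116). Among tektins and doublet inner proteins 11 of 13 were called. Cfap126 had the steepest slope of all 58 genes, 1.48 ± 0.16 (SE), and Tekt1 to Tekt4 lay at 0.51, 1.09, 0.96 and 0.71. Tekt5, a tektin known from sperm, stood at -0.07 ± 0.096 and Cfap20 at 0.08 ± 0.037, and neither was called. Without the 3 libraries 2 of the 5 tether and inner-arm modifier genes were called, Cfap43 and Cfap44, and 5 of the 13 tektins and doublet inner proteins, Cfap45, Cfap52, Cfap126, Cfap161 and Spag8. In the central apparatus 0 of 8 were called in those 13 libraries, and Hydin fell to 0.15 ± 0.11 (SE, adjusted p = 0.516, edgeR).

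The radial spokes and the nexin-dynein complex were mixed. Of 6 spoke genes, Rsph1 at 0.67 ± 0.087 and Rsph10b at 0.44 ± 0.067 were called. Rsph14, Rsph9, Rsph3 and Rsph6a were not, at 0.44 ± 0.15, 0.12 ± 0.054, 0.13 ± 0.072 and -0.22 ± 0.078 (SE). Drc7 and Drc1 were called, the latter at 0.15 ± 0.048, and Drc3 stood at 0.01 ± 0.047. Of the 6 other Cfap genes, Cfap206 at 0.84, Cfap99 at 0.69 and Cfap157 at 0.43 were called, while Cfap70, Cfap36 and Cfap97 lay between -0.0017 and 0.068. Spag1, a dynein arm assembly factor, was called at 0.84 ± 0.11. The 4 Spag rows of products outside the axoneme, Spag9, Spag7 and both rows of Spag5, lay between -0.05 and 0.05 and none was called. In those 13 libraries 0 of the 6 spoke genes and 1 of the 3 nexin-dynein genes, Drc7, were called. Of the other Cfap genes Cfap99 and Cfap206 were called there, and Spag1 was not, at 0.87 (adjusted p = 0.0627, edgeR).

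**Figure D4:**
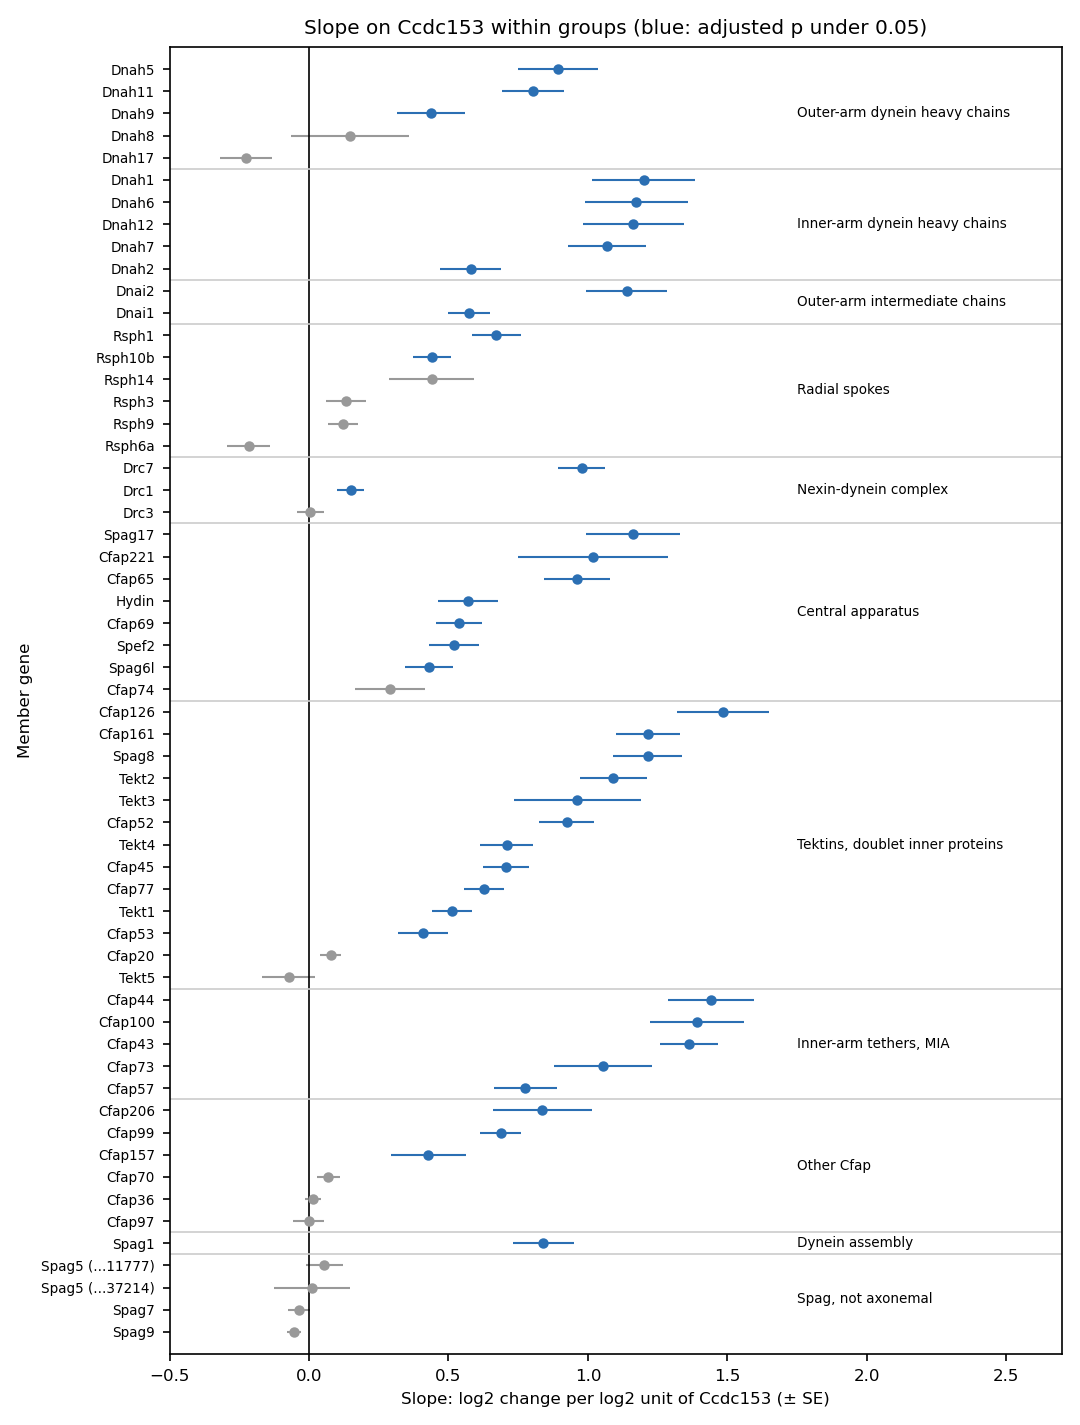
Slope of each of the 58 genes on log2 CPM of Ccdc153 within groups, with its standard error over 16 libraries, grouped by role; blue points have an adjusted p under 0.05. The 41 blue points lie between 0.15 (Drc1) and 1.48 (Cfap126), and the 17 grey ones between -0.22 (Dnah17) and 0.44 (Rsph14).

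The promoters of these genes were read for the X-box, the site of RFX transcription factors that act in ciliogenesis, and for forkhead sites of the kind bound by FOXJ1. RefSeq promoter windows of the GRCr8 build, from 250 bases before to 50 after the annotated start, were found by symbol for 51 of the 58 rows, as 50 different promoters. The short X-box site GTTGCC, sought on both strands, was in 15 of the 50 (30%), against 4087 of all 33469 promoters (12.2%). It was in 13 of 35 promoters of genes called on Ccdc153 with all 16 libraries (37.1%) and in 2 of 15 of genes not called (13.3%). The full X-box palindrome was in 0 of the 50 and in 46 of all promoters (0.137%). The forkhead core TGTTTAC was in 3 of 50 (6.00%), against 3.78% of all, and TGTTTGT in 2 of 50 (4.00%), against 6.42% of all. A match is a description of these letters, not of a bound site.

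In 4 of the 50 promoters the X-box site formed the right arm of an imperfect palindrome, with GTTGC before GGCAAC and 2 bases between them in Tekt2 and Dnai2, or 3 bases in Hydin and Cfap44. These spellings, which overlap the short site, were chosen after the sequences were read. Looser pairs were not searched, such as GTTGC before GCAAC with 3 bases between them in the promoters of Tekt4, Dnah6 and Dnah7. On both strands, 1 or the other was in 4 of 35 promoters of called genes (11.4%), in 0 of 15 of genes not called and in 123 of all 33469 (0.368%). The 4 promoters are shown because they carry this shared palindrome, and Cfap36 because its gene stayed flat over the libraries and holds the short site alone. Capitals mark every match to a searched motif, and sequences run 5′ to 3′ along the gene.
Cfap44: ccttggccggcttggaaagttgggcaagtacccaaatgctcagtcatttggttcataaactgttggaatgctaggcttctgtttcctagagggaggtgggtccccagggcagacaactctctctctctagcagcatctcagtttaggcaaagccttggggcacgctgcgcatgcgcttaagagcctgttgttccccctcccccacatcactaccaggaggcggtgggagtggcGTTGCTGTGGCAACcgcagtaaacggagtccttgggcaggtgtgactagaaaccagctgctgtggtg
Hydin: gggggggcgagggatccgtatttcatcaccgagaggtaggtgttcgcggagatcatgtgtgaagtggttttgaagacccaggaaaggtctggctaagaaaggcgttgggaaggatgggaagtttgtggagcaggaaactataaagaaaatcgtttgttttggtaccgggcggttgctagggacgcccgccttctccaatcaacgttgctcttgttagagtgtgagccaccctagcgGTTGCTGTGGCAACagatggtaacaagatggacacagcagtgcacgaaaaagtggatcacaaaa
Tekt2: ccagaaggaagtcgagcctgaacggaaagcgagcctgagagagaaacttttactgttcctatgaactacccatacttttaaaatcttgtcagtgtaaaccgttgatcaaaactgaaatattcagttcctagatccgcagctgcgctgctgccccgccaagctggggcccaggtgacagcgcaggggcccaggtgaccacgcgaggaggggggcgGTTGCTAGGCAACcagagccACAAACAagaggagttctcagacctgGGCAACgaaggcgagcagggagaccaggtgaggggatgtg
Dnai2: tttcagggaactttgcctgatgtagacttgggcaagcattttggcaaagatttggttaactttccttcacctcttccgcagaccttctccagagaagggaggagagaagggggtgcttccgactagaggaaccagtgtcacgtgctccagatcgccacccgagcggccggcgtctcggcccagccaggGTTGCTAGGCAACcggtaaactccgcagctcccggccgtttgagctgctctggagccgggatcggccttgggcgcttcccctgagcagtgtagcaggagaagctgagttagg
Cfap36: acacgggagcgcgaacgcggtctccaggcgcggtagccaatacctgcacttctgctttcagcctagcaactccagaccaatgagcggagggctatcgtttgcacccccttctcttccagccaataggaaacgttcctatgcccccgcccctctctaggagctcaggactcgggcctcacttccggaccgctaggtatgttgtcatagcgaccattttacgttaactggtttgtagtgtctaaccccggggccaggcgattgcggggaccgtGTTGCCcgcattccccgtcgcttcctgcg

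The windows lie at chr11:69789856-69790155, minus strand, for Cfap44, chr19:55146216-55146515, plus strand, for Hydin, and chr5:143907675-143907974, minus strand, for Tekt2. Those of Dnai2 and Cfap36 lie at chr10:100258772-100259071, plus strand, and chr14:107192357-107192656, minus strand. With the annotated start at 0, the palindrome began at position -17 in Cfap44, -14 in Hydin, -36 in Tekt2 and -62 in Dnai2, all before the start. In Cfap36 the short site began at 21, after the start. The slopes on Ccdc153 of the 4 genes with the palindrome were 1.44, 0.57, 1.09 and 1.14 with all 16 libraries, and that of Cfap36 was 0.01. Without the 3 libraries poor in Ttr they were 0.92, 0.15, 0.91 and 0.79, of which Cfap44 alone was called, and that of Cfap36 was 0.05. In Tekt2 the capitals also mark a second short X-box site and, on the reverse strand, the forkhead letters TGTTTGT.

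Between the groups, no cilium gene passed the test. In edgeR 0 of the 58 were called in each of the 8 contrasts, and 0 were called by DESeq2. The background was 0 genes called (0%) in 6 contrasts and 0.00704% in ELS-HFD against ELS and in the diet difference averaged over rearings. At an unadjusted p under 0.05, no cilium gene passed for HFD against control, 1 for ELS against control and 3 for ELS-HFD against control, against 1.84%, 3.32% and 4.43% of all genes. For ELS-HFD against ELS 2 passed and for ELS-HFD against HFD none, against 6.21% and 1.77%. For the diet difference 2 passed, for the separation difference none and for the interaction 1, against 5.54%, 2.60% and 2.23%. The authors' deposited table likewise lists 0 of the 58 at an adjusted p of at most 0.05 in any of its comparisons.

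The median log2 fold of the 58 genes was -0.08 for HFD against control, -0.09 for ELS against control and -0.11 for ELS-HFD against control, against -0.011, -0.0023 and -0.0092 for all genes. These 3 comparisons share the control libraries. It was -0.06 for ELS-HFD against ELS and -0.03 for ELS-HFD against HFD. Mean levels show how wide the groups were. Cfap126 was at 17.2 ± 9.04 CPM in control, 16.4 ± 8.52 in HFD, 17.0 ± 16.5 in ELS and 15.2 ± 14.6 in ELS-HFD (SD, n = 4 each). Hydin was at 18.3 ± 2.79, 15.5 ± 3.08, 18.7 ± 11.8 and 16.5 ± 6.16 CPM (SD, n = 4 each). In both genes the differences between group means were smaller than the SD of the separated groups.

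Leaving out ELS 1, ELS 2 and ELS-HFD 1 changed the sign of the median log2 fold in 5 of the 8 contrasts. It became 0.43 for ELS against control, 0.03 for ELS-HFD against control and 0.16 for ELS-HFD against HFD. It became 0.26 for the separation difference and -0.22 for the interaction, which was 0.02 with all libraries. The sign stayed for HFD against control at -0.09, for ELS-HFD against ELS at -0.40 and for the diet difference at -0.25. Still 0 of the 58 genes were called, and the smallest adjusted p for ELS against control was 0.158, for Hydin, at 0.66 ± 0.18 (SE, edgeR). Among all genes 23 were called for ELS against control (0.159%), 116 for ELS-HFD against ELS (0.804%) and 102 for the diet difference (0.707%). In this set ELS held 2 libraries, ELS 3 and ELS 4, whose choroid plexus level was 2.19 and 1.88, and the part of that level in these folds was not tested. A fit of all 16 libraries with Ttr as a covariate also called 0 of the 58.

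**Figure D5:**
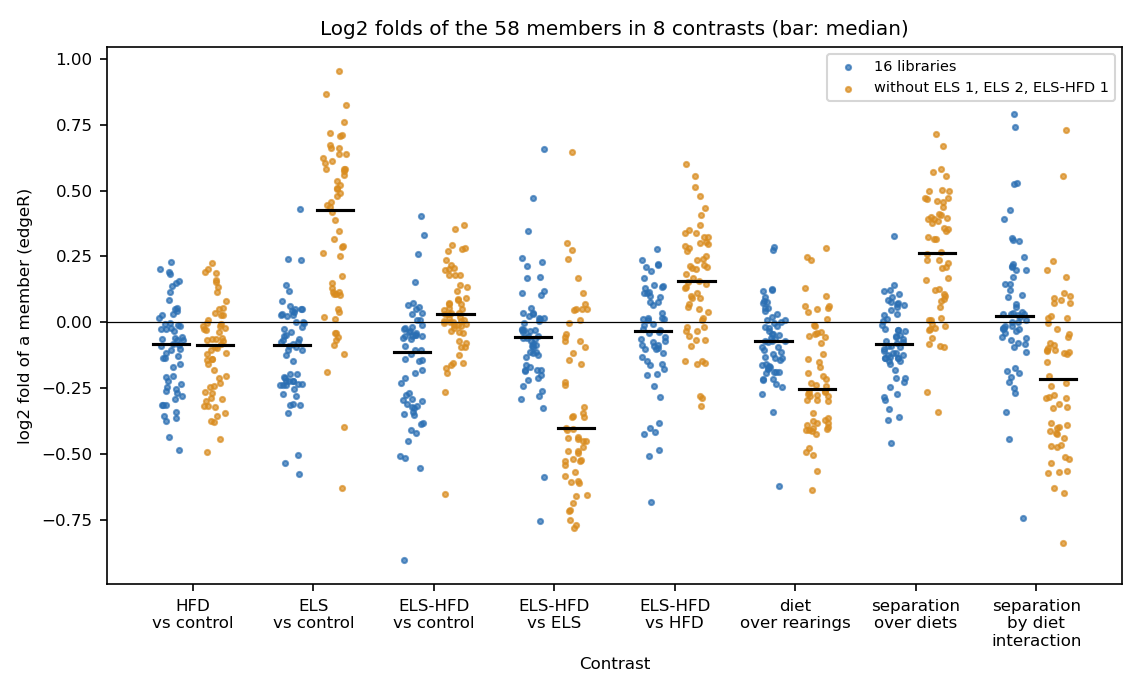
Log2 folds of the 58 genes in 8 contrasts from edgeR, with all 16 libraries (blue) and without ELS 1, ELS 2 and ELS-HFD 1 (orange); horizontal offsets only separate points, and bars mark medians. For ELS against control the median goes from -0.09 to 0.43, and for ELS-HFD against ELS from -0.06 to -0.40.

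The 4 genes with an unadjusted p under 0.05 in any contrast, Drc3, Tekt5, Cfap70 and Rsph14, were all among those not called on Ccdc153. Drc3, a subunit of the nexin-dynein complex, was at 21.0, 17.4, 19 and 21.0 CPM in control and 23.0, 23.2, 20.1 and 23.7 in HFD. It was at 15.8, 21.9, 20.8 and 18.9 CPM in ELS and 26.4, 21.4, 26.3 and 24.3 in ELS-HFD. All 4 ELS-HFD libraries were above all 4 controls, in a comparison where 1.98% of all genes did not overlap, with a log2 fold of 0.33 ± 0.10 (SE, adjusted p = 1.00, edgeR). The diet difference of Drc3 was 0.27 ± 0.074 (SE, adjusted p = 0.824, edgeR), and ELS-HFD against ELS gave 0.35 ± 0.10 (SE, adjusted p = 0.661). The authors' deposited table lists log2 folds of 0.339 and 0.348 for Drc3 in ELS-HFD against control and against ELS, with adjusted p-values of 0.787 and 0.336. After the authors' correction the same deposited table lists 0.116 and 0.0989, above 0.05 as well.

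Tekt5 was at 4.46, 5.82, 4.35 and 4.27 CPM in control and 3.53, 3.72, 2.63 and 3.54 in ELS. All 4 ELS libraries were below all controls, where 1.62% of all genes did not overlap, with a log2 fold of -0.51 ± 0.22 (SE, adjusted p = 0.999, edgeR). In ELS-HFD Tekt5 was at 6.66, 6.08, 4.97 and 3.44 CPM, and its separation-by-diet interaction was 0.74 ± 0.30 (SE, adjusted p = 1.00, edgeR). Rsph6a was lower in all 4 ELS-HFD libraries, at 2.18 to 2.68 CPM, than in all 4 HFD libraries, at 2.76 to 3.07 CPM, where 1.53% of all genes did not overlap. Cfap70 had a log2 fold of 0.26 ± 0.097 in ELS-HFD against control (SE, adjusted p = 1.00, edgeR), and Rsph14, at 4 to 23 counts, a log2 fold of -0.90 ± 0.41 (SE, adjusted p = 1.00). No gene's groups were separated for HFD against control or ELS-HFD against ELS, where 1.8% and 2.53% of all genes did not overlap. None of these 5 genes passed the threshold in any contrast.

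Genes under other symbols were read in the same fits. The background was 5.99% positive and 1.93% negative on Ttr, and 11.8% and 8.03% on Ccdc153. In the 13 libraries it was 4.26% on Ttr and 0.596% on Ccdc153, in either direction. Of 75 further motile cilium genes tested, 52 were called positive on Ttr and 0 negative, and of 74 tested on Ccdc153, 62 were called positive and 0 negative. In the 13 libraries 28 of 76 were called positive on Ttr and 14 of 75 on Ccdc153, with 0 negative. Ak7, an adenylate kinase of the axoneme, had a slope on Ccdc153 of 1.48 ± 0.11, and Zmynd10, a dynein arm assembly factor, 1.06 ± 0.085 (SE, adjusted p = 3.77e-06 and 4.62e-06, edgeR), and both were called in the 13 libraries, at 1.21 and 0.89. Among regulators of the multiciliated state 4 of 12 were called positive, Myb at 0.99 and Ccdc78 at 1.18 among them, with 0 negative, and 0 of 12 were called without the 3 libraries. Rfx2 stood at 0.22 ± 0.055 (adjusted p = 0.00873, and 0.203 in the 13 libraries, edgeR) and Rfx3 at 0.01 ± 0.050 (adjusted p = 0.950). The gene whose log2 CPM was most like the mean level of the 58 was Ccdc40, a ruler of the axonemal repeat, with r of 0.99 over 16 libraries and 0.98 over 13. Wdr63, Zmynd10, P2rx6, Ak7, Daw1, Capsl, Krt8, Lrrc34 and Ccdc114 followed, with r from 0.98 to 0.99 over 16 libraries. Of the 100 most alike genes 29 were among the 75 further motile cilium genes and 5 among the 16 choroid plexus genes. The 100 came from those of the 14208 genes tested that lie outside the 58 and carry a gene name.

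Other ependymal genes were less uniform, and their calls are read against the same background on Ccdc153, 11.8% positive and 8.03% negative. Of 20 genes of the ependymal surface and cytoplasm 9 were called positive on Ccdc153 and 1 negative, with Vim at 0.56 ± 0.080 and Spint2 at 0.47 ± 0.072 (SE). Without the 3 libraries 1 of the 20 was called, Vim at 0.54. Tmem212, a marker of ependymal cells, had 17 and 15 counts in ELS 1 and ELS 2, 7 in ELS-HFD 1 and at least 31 in the other 13 libraries, with a slope of 1.18 ± 0.12 (SE, adjusted p = 2.29e-05, edgeR), and 0.82 in the 13 (adjusted p = 0.0360). Rarres2, which is often used as an ependymal marker, stayed at 109, 100 and 87 counts in those 3 libraries and had a slope of 0.06 ± 0.089 (adjusted p = 0.709). Of 9 tanycyte genes 2 were called positive, and 0 without the 3 libraries. Primary cilium genes gave 4 positive and 0 negative calls of 27, near the background of 11.8% positive, and 0 of 27 without the 3 libraries.

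Markers of other cell types were read beside these slopes. On Ccdc153 11.8% of all genes were called positive and 8.03% negative, so 1 or 2 calls in a short list are near that share. In the 13 libraries the share in either direction was 0.596% on Ccdc153 and 4.26% on Ttr. All 16 choroid plexus genes were called positive on Ccdc153, with a median slope of 1.86, and Ttr itself stood at 2.15 ± 0.62 (SE, adjusted p = 0.0233, edgeR). In the 13 libraries 0 of 16 were called, with a median of 1.10 and Ttr at 1.04 (adjusted p = 0.125). Myelin genes gave 19 of 20 positive calls with a median of 0.41, and 0 of 20 in the 13 libraries. Their summed level was 6615, 6128 and 3853 CPM in ELS 1, ELS 2 and ELS-HFD 1, against 5045 to 16376 CPM in the other 13. Of the genes of meninges and fibroblasts 4 of 11 were called positive, and 0 of 11 in the 13 libraries, where 5 of 11 were called on Ttr. Igfbp2 and Igf2, which had the smallest p of that list on Ccdc153, had slopes on Ttr of 0.99 and 1.00 in the 13 libraries. The median slope there was 0.31 for that list and 1.05 for the choroid plexus genes. The summed level of the 11 genes, Igfbp2 and Igf2 included, was 192, 150 and 236 CPM in the 3 libraries, against 320 to 1464 CPM in the other 13. Astrocyte genes gave 1 positive call of 14, Gfap at 0.43, called at 0.51 in the 13 libraries too, and striatal neuron genes 0 of 16. Excitatory neuron genes gave 0 positive and 3 negative calls of 13, hypothalamic genes 2 positive of 9, and microglial and endothelial genes 0 of 10 and 0 of 8. In the 13 libraries hypothalamic genes gave 1 positive and 1 negative call, and striatal, excitatory, microglial and endothelial genes none. The part of myelin, meningeal or choroid plexus RNA in the slopes of the cilium genes was not tested.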

How the data were processed

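Per the labels' protocols, libraries were made from 15 ng of RNA with barcoded oligo-dT primers, pooling and linear amplification, so reads come mainly from transcript ends and levels of different genes are not compared. Named in the submitters' processing notes, without versions or roles, are the Rnor_6.0 build and the tools HTSeq, STAR, cutadapt, Picard and DESeq2. Strand and molecular identifiers are not given in the sources used here, so antisense partners cannot be told apart. The authors deposited raw counts per Ensembl gene for 15580 genes, per the file headers. The authors' log2 fold changes and p-values, before and after a correction whose method is not given, were used only where their deposited table is named.

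Raw counts were tested in edgeR 4.0.16 (R 4.3.3; glmQLFit and glmQLFTest) with TMM scaling and filterByExpr (minimum count 10, minimum total 15). The model fitted 1 mean per group to all 16 libraries. Benjamini-Hochberg adjustment ran over all genes tested, and called means adjusted p under 0.05. Slopes on Ttr or Ccdc153 added its log2 CPM (prior count 2) to the model. A standard error is the estimate divided by the square root of F. Groups came from the treatment given in the sample labels. The tests were checked on simulated counts.

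The members and lists were chosen with earlier results of these data known. Genes named singly were the 2 most abundant of each prefix, those with the smallest p in each direction of a contrast, the 5 smallest and 3 largest p in each slope, the 3 of lowest agreement, the 10 most alike outside genes and the 2 of smallest p per list; others illustrate their role or list. Foxj1 had been planned for the second slope and was replaced by Ccdc153. Alternatives were DESeq2 1.42.0 and its size factors, no filter, the replicate number as a block, a letter that ends the library code in the labels, each library left out, the 3 libraries poor in Ttr left out, and Ttr as a covariate. Permutation tests used 100000 resamples. Promoters came from RefSeq (GRCr8); 7 rows had no entry.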

Additional observations from a re-analysis of the deposited data

Results flagged for a closer look

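Within a group of 4 libraries, 7 of the 152 sets of values examined held 1 library far from the other 3, by Dixon's ratio of gap to range at 95% confidence; chance gives about 1 in 20. Tekt5 was at 5.82 CPM in control 2 and at 4.27 to 4.46 CPM in the other controls, and its fold for ELS against control uses that library. Spag9 was at 407 CPM in HFD 2 and at 362 to 364 CPM in the other HFD libraries. Dnah6, an inner-arm dynein, was at 3.24 CPM in HFD 2, the lowest of its group, and at 6.19 to 6.64 CPM in the others. Cfap70 was at 26.4 CPM in control 1 and at 22.1 to 22.6 CPM in the other controls. Rsph9, a radial spoke head protein, was at 33.2 CPM in HFD 1 and at 29.1 to 29.4 CPM in the others. Cfap20 was at 65.7 CPM in ELS-HFD 3 and at 54.0 to 54.8 CPM in the others. Spag5 (ENSRNOG00000011777) was at 6.41 CPM in ELS-HFD 2 and at 5.495 to 5.58 CPM in the others. ELS 1, ELS 2 and ELS-HFD 1 did not meet this criterion because ELS held 2 low and 2 high libraries and ELS-HFD 4 lay between the lowest and the highest library.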

How the results depend on the processing

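The 0 calls between groups held in each of the 8 contrasts under every alternative tried, each left-out library included. The 31 calls on Ttr fell to 15 with the replicate number as a block (replicate block), to 12 without ELS 1, ELS 2 and ELS-HFD 1, and ranged from 20 to 35 when 1 library was left out. The background on Ttr fell from 7.92% to 2.96% with the replicate block, 4.26% without the 3 libraries and 2.85% without ELS 2. The 41 calls on Ccdc153 were 40 with the replicate block, fell to 10 without the 3 libraries, and ranged from 39 to 42 with 1 left out. The background on Ccdc153 fell from 19.8% to 0.596% without the 3 libraries. The median pairwise r fell to 0.496 without the 3 libraries and ranged from 0.581 to 0.653 with 1 left out. The causes of these changes were not tested. Leaving out the 3 libraries also shortened the range of Ttr and Ccdc153 and lowered the number of samples. Deviations from the group means were compared between same-numbered libraries of different groups. Over 24 pairs r ran from -0.479 to 0.652, with a median of -0.0989 and 8 pairs over 0.1. In 72 pairs with different numbers the median was -0.00514. The labels do not say that the numbers pair the samples, and a shared litter or batch was not tested.

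Without the 3 libraries Dnah1, Cfap43 and Dnah6 were no longer called on Ttr. Slopes near 0 changed sign. On Ttr, Spag5 (ENSRNOG00000011777) was at -0.000277 with no filter and -0.00115 with the label letter, Cfap97 at -0.00531 with the replicate block and -0.0550 without the 3 libraries, and Cfap36 at 0.00489 and 0.0160 under those settings. On Ccdc153, Cfap97 was at 0.000177 with DESeq2 size factors, 0.00164 with DESeq2 and 0.00279 with the label letter, and Spag5 (ENSRNOG00000037214) at -0.0337 with the replicate block and -0.117 without the 3 libraries. With 1 library left out, Spag5 (ENSRNOG00000011777) ranged from -0.00770 to 0.0177, Cfap97 from -0.0139 to 0.00679 and Cfap36 from -0.00216 to 0.00314 on Ttr. On Ccdc153 Cfap97 ranged from -0.0283 to 0.0371, Spag5 (ENSRNOG00000037214) from -0.117 to 0.1001 and Drc3 from -0.0283 to 0.0414. Dnah9 in HFD against control ranged from -0.500 to 0.0639, positive without control 4. With counts of 4 to 23 for Rsph14 and 0 to 17 for Cfap221, small changes of such genes were not detectable at this depth. The slope on Foxj1 was not run.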
